A study of Mus musculus with 4 samples.

Results

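The miR-181 family was followed in small RNA sequencing of mouse liver. Its members here are the 5p guide strands mmu-miR-181a-5p, mmu-miR-181b-5p, mmu-miR-181c-5p and mmu-miR-181d-5p (written below without the species prefix), taken by name, which makes 4 of the 1907 mature miRNAs in the deposited count files. The livers came from C57BL/6 mice aged 15 weeks. One group had received thioacetamide (TAA), a liver toxin that serves as a rodent model of fibrosis. It was injected intraperitoneally at 200 mg/kg, with 3 injections weekly over 10 weeks. The other group was labelled control, with no vehicle stated. Each group had 2 libraries, called biological replicates in the series' design text without naming animals, so p-values measure the spread between these libraries. All 4 guides passed the filter on low counts, and none passed the test for a change in TAA-treated liver.

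MicroRNAs of about this length guide Argonaute proteins to messenger RNAs, mainly through the seed, the bases near the 5′ end that pair with the target. A hairpin precursor yields a 5p and a 3p strand, and for miR-181 the 5p strand is the one that is mostly kept. The family is known best from lymphocytes, where miR-181a sets the sensitivity of developing T cells to antigen and promotes B cell differentiation. It is also known from endothelium, where miR-181b restrains NF-kB signalling. In human hepatocellular carcinoma the family has been described in cells with stem cell features.

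The mature sequences, from RefSeq (GRCm38.p6), are shown because all 4 members share one seed and differ only behind it. The seed, bases 2 to 8, is in capitals.
miR-181a-5p: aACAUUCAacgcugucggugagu
miR-181b-5p: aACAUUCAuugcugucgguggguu
miR-181c-5p: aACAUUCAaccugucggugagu
miR-181d-5p: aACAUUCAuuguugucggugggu
Among 1679 mature mouse miRNA names in the RefSeq table, these 4 were all that carried the seed ACAUUCA. Positions are counted from 1 at the 5′ end of the first-named miRNA. miR-181b-5p differed from miR-181a-5p by the substitutions A9U, C10U and A21G and by 1 extra base at its 3′ end. miR-181c-5p aligned to miR-181a-5p without a substitution and lacked only base 11. miR-181d-5p differed from miR-181b-5p by C12U and ended 1 base earlier. Counts of members this alike could be exchanged by reads with an error at those bases, and how many mismatches the alignment allowed is not stated.

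The guides come from 6 hairpins in 3 clusters (GENCODE annotation of GRCm38, which is mm10). Mir181a-1 (chr1:137966455-137966541) and Mir181b-1 (chr1:137966639-137966718) lie 97 bases apart on the plus strand, in an intron of the non-coding gene Gm4258 and opposite an intron of the lincRNA Gm26936. Mir181b-1 also lies within an exon of the lincRNA A430106G13Rik, and Mir181a-1 overlaps the edge of an exon of that gene. Mir181a-2 (chr2:38852735-38852810) and Mir181b-2 (chr2:38853830-38853918) lie 1019 bases apart on the plus strand, opposite an intron of the protein-coding gene Nr6a1 and, for Mir181b-2, also opposite an exon of Gm44144. Mir181c (chr8:84178873-84178961) and Mir181d (chr8:84178716-84178787) lie 85 bases apart on the minus strand, in an intron of Nanos3 on the same strand. A miR-181a-5p or miR-181b-5p read therefore does not tell which of 2 hairpins it came from, while their 3p strands have a name for each hairpin.

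The libraries held 43836911 and 48878003 miRNA counts in TAA-treated liver and 42609845 and 46224018 in controls. Of 644 miRNAs tested, 107 changed, which is 16.6%: 90 were higher, or 14.0%, and 17 lower, or 2.64%. For the liver label 5 hepatocyte miRNAs were read. All had counts in every library, a weak check where 993 to 1052 miRNAs were detected in each. Their sum was 317847 and 328676 CPM in TAA-treated liver and 349916 and 380613 CPM in controls. Most of it was miR-192-5p, at 225049 and 231934 CPM in TAA-treated liver and 244876 and 264434 CPM in controls. miR-122-5p had 17376 and 17500 CPM in TAA-treated liver and 18285 and 21608 CPM in controls. CPM is a library-scaled count (library size times its TMM factor, the edgeR default). In bulk tissue, fewer cells of a type and less RNA per cell cannot be told apart.

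The 4 guides formed a steep order of read counts that was alike in both groups. miR-181a-5p, the guide shared by the hairpins on chromosomes 1 and 2, was measured at 3397 and 2884 CPM in TAA-treated liver, against 3137 and 3036 CPM in controls. With TMM factors TAA 1 was highest and TAA 2 lowest; by counts per library total control 2 was lowest, at 2807 CPM against 3026 CPM in TAA 2. miR-181c-5p had 505 and 406 CPM in TAA-treated liver, against 401 and 455 CPM in controls.
miR-181b-5p had 145 and 122 CPM in TAA-treated liver, against 119.5 and 115 CPM in controls. Both TAA libraries lay above both controls, TAA 2 by a small margin. miR-181d-5p, the rarest member, had 35.2 and 31.0 CPM in TAA-treated liver, against 30.2 and 34.0 CPM in controls. With TMM factors, miR-181b-5p alone had groups that did not overlap. By counts per library total miR-181c-5p and miR-181d-5p lay apart too, TAA above: miR-181c-5p had 523 and 426 CPM in TAA-treated liver against 398 and 421 CPM in controls, and miR-181d-5p 36.5 and 32.6 CPM in TAA-treated liver against 29.99 and 31.4 CPM in controls. By that scaling 53.3% of miRNAs lay apart, 38.5% with TAA above. Among the 644 miRNAs tested, with TMM factors, 55.3% had libraries that did not overlap, and in 29.7% both TAA libraries were above.

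**Figure D1:**
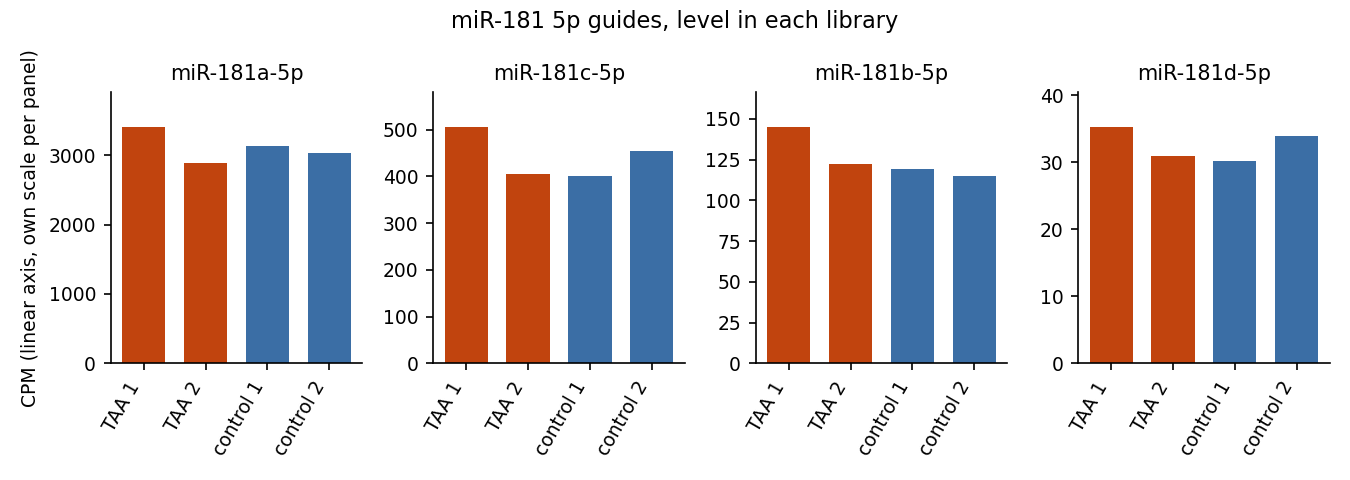
CPM (with TMM factors) of each miR-181 5p guide in each library, TAA libraries in orange and controls in blue, on a linear axis from 0 with its own scale per panel. TAA 1 is the highest library in all 4 panels, and TAA 2 lies near or among the controls, except for miR-181a-5p, where it is the lowest.

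By mean CPM over the 4 libraries, miR-181a-5p ranked 34, miR-181c-5p 74, miR-181b-5p 125 and miR-181d-5p 195 among the 1256 miRNAs with a count in any library. The order a, c, b, d held within each library, and every step was larger than the spread between libraries. miR-181a-5p had 6.73 and 7.11 times the counts of miR-181c-5p in TAA-treated liver, against 7.83 and 6.68 times in controls. miR-181c-5p had 3.49 and 3.32 times the counts of miR-181b-5p in TAA-treated liver, against 3.35 and 3.95 times in controls. The last step, miR-181b-5p over miR-181d-5p, was 4.11 and 3.94 in TAA-treated liver and 3.96 and 3.39 in controls. The guides are 22 to 24 bases long, so their read counts need no scaling by length. These steps are ratios of read counts, and whether the molecules stand in the same ratios was not tested.

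The comparison that the series names, TAA-treated against control liver, addresses the miRNA changes of TAA-induced fibrosis. None of the 4 guides passed the test, the quasi-likelihood F test of edgeR, which called 16.6% of miRNAs at a threshold of 0.05 after Benjamini-Hochberg adjustment over all 644 miRNAs. At an unadjusted p under 0.05, which 25.6% of all miRNAs reached, 0 of the 4 passed as well, and with DESeq2 and limma-voom 0 passed after adjustment.

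miR-181a-5p averaged 3140 ± 363 CPM in TAA-treated liver and 3086 ± 71.7 CPM in controls (SD, n = 2 each). Its log2 fold change was 0.03 (SE 0.12, 95% interval -0.24 to 0.29, edgeR adjusted p = 0.923). On the linear scale that interval runs from 0.846-fold to 1.22-fold. For this guide, a change of 2-fold in either direction lies outside the interval.
miR-181c-5p averaged 455 ± 70.2 CPM in TAA-treated liver and 428 ± 38.1 CPM in controls, with a log2 fold change of 0.09 (SE 0.15, 95% interval -0.25 to 0.43, edgeR adjusted p = 0.793). miR-181d-5p averaged 33.1 ± 2.96 CPM in TAA-treated liver and 32.1 ± 2.67 CPM in controls, with a log2 fold change of 0.05 (SE 0.17, 95% interval -0.34 to 0.43, edgeR adjusted p = 0.909). These guides come from neighbouring hairpins in Nanos3, and in each the spread within a group was wider than the difference between the group means.
miR-181b-5p averaged 134 ± 15.96 CPM in TAA-treated liver and 117 ± 3.02 CPM in controls. Its log2 fold change of 0.19 (SE 0.15, 95% interval -0.15 to 0.53, edgeR adjusted p = 0.499) had the smallest p of the family.

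**Figure D2:**
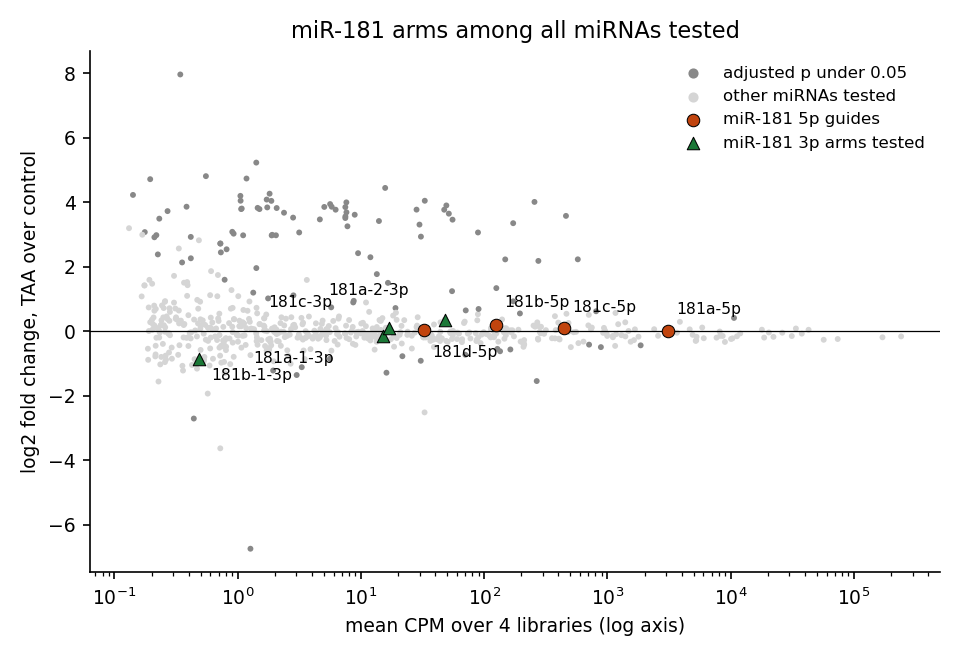
Log2 fold change, TAA over control, against mean CPM on a log axis, for the 644 miRNAs tested. The miR-181 5p guides (orange circles) and the tested 3p arms (green triangles) lie in the dense band around 0, and none is among the 107 past the threshold (dark grey).

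Over all 644 miRNAs the log2 fold changes had a median of -0.0042, and the 4 guides lay between 0.03 and 0.19. Of the miRNAs tested, 35.7% had a higher log2 fold change than miR-181b-5p, 42.2% than miR-181c-5p, 46.0% than miR-181d-5p and 47.8% than miR-181a-5p. A smaller p was found in 89.9% of miRNAs than that of miR-181a-5p, and in 48.3% than that of miR-181b-5p.

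The direction of the 3 smallest fold changes rested on single libraries. Without TAA 1 the log2 fold change was -0.10 for miR-181a-5p, -0.077 for miR-181c-5p and -0.049 for miR-181d-5p, and without TAA 2 it was 0.14, 0.24 and 0.13. miR-181b-5p kept a positive value in both cases, at 0.06 without TAA 1 and 0.30 without TAA 2.

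Summed over the 4 guides, which share their seed, the family had 4082 and 3442 CPM in TAA-treated liver, against 3688 and 3639 CPM in controls. The mean was 3762 ± 452 CPM in TAA-treated liver and 3664 ± 34.0 CPM in controls, a ratio of 1.03. With TMM factors TAA 1 lay above both controls and TAA 2 below both. As a share of all miRNA counts, the sum was 0.423% and 0.361% in TAA-treated liver and 0.366% and 0.337% in controls, so that TAA 2 lay between the controls; the 95% Wilson intervals of these shares, which cover counting error only, extended at most from 0.421% to 0.425% around the highest.

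Within the family, the libraries of the groups lay apart for the share of 1 member, miR-181b-5p. It took 3.55% and 3.55% of the family's counts in TAA-treated liver, with 95% Wilson intervals of 3.46% to 3.63% and 3.47% to 3.64%. In controls it took 3.24% and 3.17%, with intervals of 3.15% to 3.33% and 3.08% to 3.26%. These intervals cover counting error only. The share does not depend on the scaling of libraries. Of all miRNAs tested, 55.3% had libraries that lay apart in CPM. The 1 of 4 shares is no more than that, though CPM is another measure than a share within a family. miR-181a-5p took 83.2% and 83.8% in TAA-treated liver and 85.1% and 83.4% in controls, miR-181c-5p 12.4% and 11.8% against 10.9% and 12.5%, and miR-181d-5p 0.862% and 0.901% against 0.819% and 0.933%. In those 3 members the groups overlapped. Of the 6 ratios between members, miR-181a-5p over miR-181b-5p alone did not overlap, which is fewer than the 33.9% of arm ratios over all hairpins that did not. Its values were 23.5 and 23.6 in TAA-treated liver and 26.2 and 26.3 in controls. Its exact permutation p was 0.333, two-sided, which is the smallest that 2 libraries against 2 allow.

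The 3p strands give a readout for each hairpin. They are shown for the 3 hairpins with more than 100 counts in every library, because miR-181a-1-3p and miR-181a-2-3p tell apart the hairpins that share miR-181a-5p. Bases 2 to 8 are in capitals.
miR-181a-1-3p: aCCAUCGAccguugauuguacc
miR-181a-2-3p: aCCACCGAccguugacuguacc
miR-181c-3p: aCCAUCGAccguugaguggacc
miR-181a-2-3p differed from miR-181a-1-3p by U5C and U16C, the first of which lies in the seed. miR-181c-3p carried the same seed as miR-181a-1-3p and differed from it by U16G and U19G. The precursors of both miR-181a hairpins follow, with their 5p and 3p strands in capitals, the identical 5p strand first.
Mir181a-1: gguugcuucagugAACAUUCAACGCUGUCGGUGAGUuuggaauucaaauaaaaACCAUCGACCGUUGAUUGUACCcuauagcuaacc
Mir181a-2: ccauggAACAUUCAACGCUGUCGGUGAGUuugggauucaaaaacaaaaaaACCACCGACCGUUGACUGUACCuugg

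The 3p strands had far fewer reads than the guides, with 4134 and 4159 counts over the 6 names in TAA-treated liver, against 3199 and 3166 in controls. The 4 guides together had 44.9 and 42.5 times as many counts in TAA-treated liver, against 48.8 and 49.1 times in controls. miR-181a-2-3p was the most abundant, with 2608 and 2549 counts in TAA-treated liver and 1827 and 1732 in controls. miR-181c-3p had 833 and 872 counts in TAA-treated liver and 685 and 706 in controls. miR-181a-1-3p had 664 and 709 counts in TAA-treated liver and 650 and 690 in controls.
miR-181b-1-3p had 18 and 15 counts in TAA-treated liver and 25 and 28 in controls. miR-181b-2-3p, with 3 and 7 counts in TAA-treated liver and 8 and 3 in controls, did not pass the filter on low counts, nor did miR-181d-3p, with 8 and 7 against 4 and 7. Most 3p reads thus came from the c and both a hairpins, and 4 of the 6 names were tested.

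None of the 4 tested 3p strands passed edgeR's test, which 16.6% of all miRNAs did, and 0 had an unadjusted p under 0.05 there, against 25.6% of all miRNAs. With DESeq2 and limma-voom 0 passed after adjustment. With TMM factors the libraries of the groups lay apart for each of these 4 strands, against 55.3% of all miRNAs tested. TAA was above for miR-181a-2-3p and miR-181c-3p, and below for miR-181a-1-3p and miR-181b-1-3p. The unadjusted p of miR-181a-2-3p was under 0.05 with DESeq2 (0.0305) and, in edgeR, with library size alone (0.0264) and with a minimum of 10 CPM (0.0245). miR-181a-2-3p measured 57.4 and 49.7 CPM in TAA-treated liver, against 43.2 and 40.5 CPM in controls. Both TAA libraries were above both controls, with a log2 fold change of 0.36 (SE 0.16, 95% interval -0.01 to 0.72, edgeR adjusted p = 0.210). miR-181a-1-3p measured 14.6 and 13.8 CPM in TAA-treated liver, against 15.4 and 16.1 CPM in controls. With TMM factors both TAA libraries were below both controls; by counts per library total they overlapped, at 15.1 and 14.5 against 15.3 and 14.9 CPM. The log2 fold change was -0.15 (SE 0.18, 95% interval -0.55 to 0.26, edgeR adjusted p = 0.684). With library size alone and with upper-quartile factors it was -0.026 and -0.32, and that of miR-181a-2-3p was 0.47 and 0.19.
miR-181c-3p measured 18.3 and 17.0 CPM in TAA-treated liver, against 16.2 and 16.5 CPM in controls, and its log2 fold change was 0.11 (SE 0.17, edgeR adjusted p = 0.776). miR-181b-1-3p, at 0.396 and 0.292 CPM in TAA-treated liver and 0.591 and 0.655 CPM in controls, had the widest interval. Its log2 fold change was -0.86 (SE 0.44, 95% interval -1.87 to 0.16, edgeR adjusted p = 0.276).

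**Figure D3:**
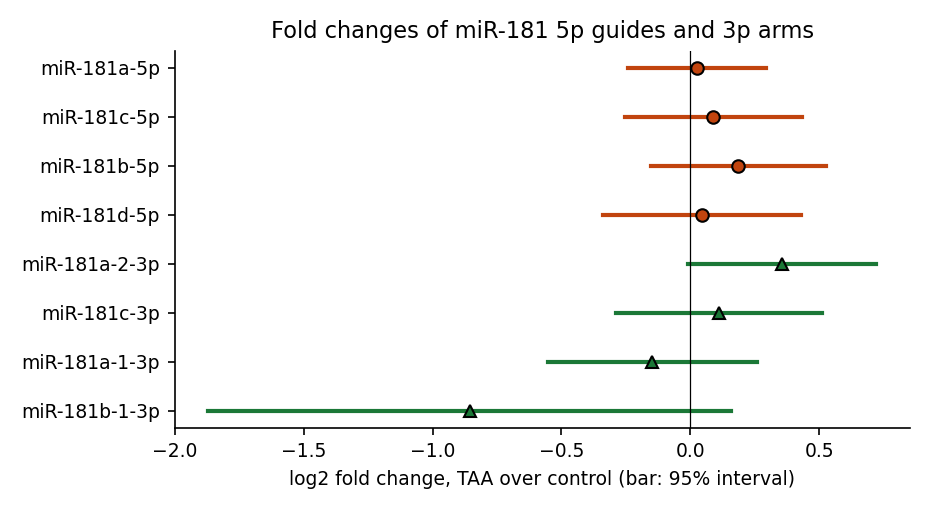
Log2 fold changes, TAA over control, of the 4 miR-181 guides (orange circles) and the 4 tested 3p arms (green triangles), with 95% intervals as bars. Every bar crosses 0; the bar of miR-181a-2-3p does so only at its lower end, and that of miR-181b-1-3p is the widest.

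Within the 3p counts, the cluster on chromosome 2 took a larger share in TAA-treated liver than in controls, and the cluster on chromosome 1 a smaller one. The strands of Mir181a-2 and Mir181b-2 made up 63.2% and 61.5% of 3p counts in TAA-treated liver, against 57.4% and 54.8% in controls. The strands of Mir181a-1 and Mir181b-1 made up 16.5% and 17.4% in TAA-treated liver, against 21.1% and 22.7% in controls. For both clusters, the 95% Wilson intervals of the TAA libraries lay apart from those of the controls; for chromosome 2 the nearest bounds were 59.97% in TAA 2 and 59.1% in control 1, and for chromosome 1 they were 18.6% in TAA 2 and 19.7% in control 1. The strands of Mir181c and Mir181d made up 20.3% and 21.1% in TAA-treated liver, against 21.5% and 22.5% in controls. Both TAA values were below both controls there too, with intervals that overlapped between groups. The shares are parts of one whole, so they are not independent of each other. Mir181b-2 gave only 3 to 8 of the chromosome 2 counts per library, and Mir181b-1 15 to 28 of the chromosome 1 counts. These 2 cluster shares are therefore in effect those of Mir181a-2 and Mir181a-1. Such shares were not taken over other families. For CPM, another measure, 55.3% of all miRNAs tested had libraries that lay apart. Counting intervals leave out differences between animals, and the number of 3p reads need not follow the number of precursors.

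**Figure D4:**
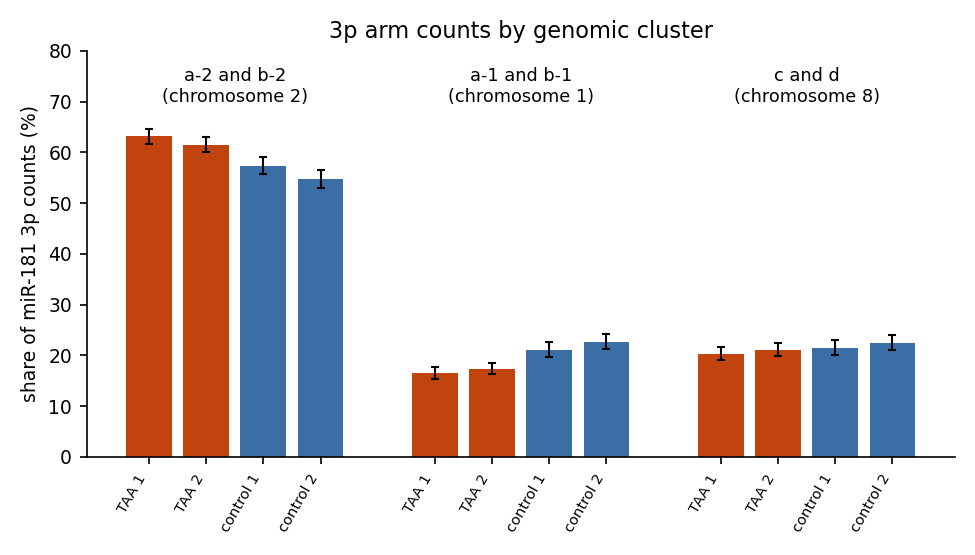
Share of miR-181 3p counts from each genomic cluster in each library, TAA in orange and control in blue, with 95% Wilson intervals (counting error only). The chromosome 2 bars are higher in both TAA libraries, at 63.2% and 61.5% against 57.4% and 54.8%, and the chromosome 1 bars lower. Nearly all of these counts come from Mir181a-2, Mir181a-1 and Mir181c.

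The difference between the miR-181a hairpins was tested directly, in an analysis added after the data were seen. miR-181a-2-3p had 3.93 and 3.60 times the counts of miR-181a-1-3p in TAA-treated liver, against 2.81 and 2.51 times in controls. This ratio, which no library scaling can move, differed by 0.50 on the log2 scale (SE 0.15). Over the 8 guides with 3p names for 2 hairpins that both averaged 20 counts or more, limma gave it an unadjusted p of 0.0255 and an adjusted p of 0.102, short of the threshold, and the second largest difference after miR-129. Of those 8 ratios 1 passed, or 12.5%, and 3 did not overlap between groups, or 37.5%. Over the 12 guides kept by a minimum average of 5 counts, the same difference had an unadjusted limma p of 0.0609 and an adjusted p of 0.365. Without control 1, control 2, TAA 1 or TAA 2 the difference was 0.58, 0.42, 0.44 and 0.56. Such fits leave 1 library in a group, so only the differences are given.

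The ratio of 5p to 3p counts asks whether the strands of a hairpin changed unequally. It was tested with limma over 171 hairpins, of which 0 passed, or 0.00%, and 58 had libraries that did not overlap, or 33.9%. Of the miR-181 hairpins tested, Mir181a-1 and Mir181b-1 had ratios that lay apart with TAA above, and Mir181a-2 with TAA below. The ratio of Mir181c overlapped between groups. For Mir181c, the one tested miR-181 hairpin whose guide has no second source, the guide had 25.6 times the counts of its 3p strand in TAA-treated liver and 26.1 times in controls (geometric means, n = 2 each), a log2 difference of -0.03 (SE 0.17, limma adjusted p = 0.975). Against miR-181a-2-3p, miR-181a-5p had 58.6 times the counts in TAA-treated liver and 73.8 times in controls, a log2 difference of -0.33 (SE 0.15, limma adjusted p = 0.924). Against miR-181a-1-3p it had 220.1 times the counts in TAA-treated liver and 195.9 times in controls, a log2 difference of 0.17 (SE 0.16).
miR-181b-5p had 379 times the counts of miR-181b-1-3p in TAA-treated liver and 185 times in controls. The log2 difference of 1.03 (SE 0.18) had an unadjusted p of 0.00205 and a limma adjusted p of 0.175, and it rests on 15 to 28 counts of the 3p strand. Under other settings with all libraries, limma adjusted p-values ran from 0.0824 (with an abundance trend) to 0.547 (minimum average of 5 counts). A block for replicate number gave 0.528. At a minimum average of 100 counts this hairpin was not tested. Without control 1, control 2, TAA 1 or TAA 2 the difference was 1.13, 0.94, 1.13 and 0.94. Such fits leave 1 library in a group, so only the differences are given. miR-181a-5p and miR-181b-5p hold reads of 2 hairpins each, so these ratios are not those of a single hairpin.

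Markers of the cells in which miR-181 is known were read in the same libraries. Their counts stand against the 14.0% of all miRNAs that were higher and the 2.64% that were lower, and no list was tested as such. Of 7 leukocyte miRNAs, 3 were higher and 0 lower, and the list had a median of 0.57 on the log2 scale. Those higher were miR-150-5p and miR-342-3p, both typical of lymphocytes, and miR-155-5p, induced on immune cell activation. miR-150-5p, the clearest of them, measured 188 and 172 CPM in TAA-treated liver, against 67.4 and 74.6 CPM in controls (edgeR adjusted p = 0.000241, log2 fold change 1.34 with SE 0.14). Its list summed to 2501 and 2070 CPM in TAA-treated liver, against 1216 and 1808 CPM in controls, with both TAA libraries above both controls. The miR-181 sum overlapped between groups. Of 2 endothelial miRNAs 0 passed (median -0.11), at a sum of 26409 and 22655 CPM in TAA-treated liver, against 25346 and 29185 CPM in controls.

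Of 6 stellate and smooth muscle miRNAs, miR-214-3p was higher and 0 were lower, with a median log2 fold change of 0.39. The list summed to 31620 and 23362 CPM in TAA-treated liver, against 27768 and 28086 CPM in controls. The list sum was highest in TAA 1 and lowest in TAA 2, as was the miR-181 sum with TMM factors. As a share of all miRNA counts, the miR-181 sum was lowest in control 2. Most of the list sum was 1 miRNA, miR-143-3p, at 29773 and 21931 CPM in TAA-treated liver, against 26276 and 26924 CPM in controls. The order did not hold for miR-214-3p, at 96.0 and 77.1 CPM in TAA-treated liver, against 59.3 and 50.9 CPM in controls. All 4 erythroid miRNAs were higher, with a median of 2.27, at a sum of 530 and 1926 CPM in TAA-treated liver and 325 and 196 CPM in controls. TAA 2 held the most erythroid miRNA. None of the 5 hepatocyte miRNAs passed (median -0.19), and neither did the 2 tested of 3 neuronal miRNAs (median -0.12), among which miR-124-3p had 0 counts in TAA 1 and control 1. No member of the leukocyte, endothelial, stellate and smooth muscle, erythroid or hepatocyte lists was at 0 in any library, and the part of these cells in the miR-181 levels was not tested.

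Other miRNAs of pathways in which miR-181 is placed were counted in the same way, against the same background of 14.0% higher and 2.64% lower. Of 15 miRNAs listed as responsive to TGF-beta, the main fibrogenic cytokine of liver, 1 was higher, 3 were lower and the median log2 fold change was -0.07. The higher one was miR-155-5p, at 11.0 and 12.0 CPM in TAA-treated liver and 6.24 and 5.71 CPM in controls. The lower ones were miR-29b-3p and miR-29c-3p, which repress collagen mRNAs, and miR-200c-3p, of the epithelial miR-200 family. miR-29c-3p measured 747 and 726 CPM in TAA-treated liver, against 1035 and 1032 CPM in controls (edgeR adjusted p = 0.0185, log2 fold change -0.49 with SE 0.11). Of 7 miRNAs that take part in feedback on NF-kB, miR-155-5p and miR-146b-5p were higher and 0 lower, with a median of 0.28; miR-146b-5p had 27.1 and 20.4 CPM in TAA-treated liver and 13.4 and 15.3 CPM in controls. The lists share members, and miR-155-5p stands in 3 of them.

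The miRNAs whose pattern over the 4 libraries was most like that of the miR-181 sum were miR-322-3p, miR-23a-3p, miR-500-3p, miR-125b-2-3p and miR-10a-5p. Likeness was the root mean square distance of centred log2 CPM over 4 libraries, among 266 miRNAs of at least 10 CPM outside the miR-181 hairpins, and these 5 lay at 0.021 to 0.039. miR-322-3p, the nearest, measured 138 and 115 CPM in TAA-treated liver, against 122 and 125 CPM in controls, with the TAA libraries on either side of the controls under TMM factors. miR-23a-3p measured 356 and 285 CPM in TAA-treated liver, against 319 and 307 CPM in controls. Small fold changes of these 5 follow from how they were chosen.

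**Figure D5:**
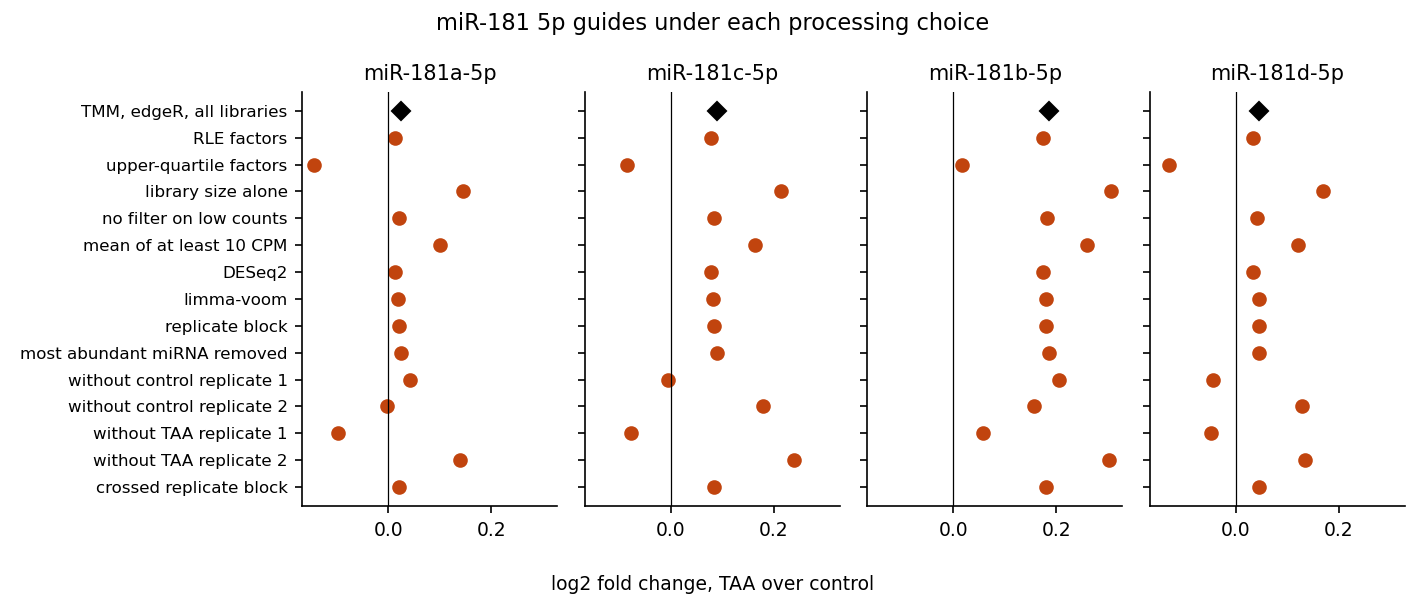
Log2 fold change, TAA over control, of each miR-181 guide under each processing choice; the black diamond is edgeR with TMM factors and all libraries, and orange points are the alternatives. miR-181b-5p is above 0 throughout, while miR-181a-5p, miR-181c-5p and miR-181d-5p are below 0 with upper-quartile factors, without TAA replicate 1 and without 1 of the controls.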

How the data were processed

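Small RNA libraries were made with the TruSeq small RNA kit from total RNA of 2 TAA-treated and 2 control livers, per the labels' protocols. Each deposited file gives the unnormalized read count of every mature miRNA in 1 library. Bowtie, HTSeq and mm10 are named in the submitters' processing notes; versions, trimming, settings and how reads matching several hairpins were handled are not stated there. Non-unique alignments are listed at 0 in every file. The 5 rows that name no miRNA (31.3% to 34.6% of reads) were left out. Replicates differed beyond sampling noise (chi-square per degree of freedom 207 for the TAA pair and 150.2 for the controls).

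The filter filterByExpr kept 644 miRNAs with 99.997% of counts, which were tested by the quasi-likelihood F test of edgeR 4.0.16 with TMM factors (R 4.3.3); a standard error is the log2 fold change over the square root of F. Arm and hairpin ratios (counts plus 0.5, log2) were tested with limma 3.58.1 where both strands averaged at least 20 counts. On simulated data of the edgeR comparison (615 miRNAs tested), 63.2% of 2-fold and 94.6% of 4-fold changes were recovered, with 8 false calls among 156. Simulated arm ratios (171 hairpins) gave 20 of 20 changed 4-fold, with 3 false calls. No smaller change of an arm ratio was simulated, so recovery of smaller differences is not known. The simulation may overstate recovery in the real data. There the miR-129-2 arm ratio differed by -2.73 on the log2 scale and still had a limma adjusted p of 0.124. That 0 of 171 real ratios passed therefore does not exclude 4-fold differences. Alternatives included DESeq2 1.42.0, other factors and filters, and leaving out libraries.

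Members and lists were chosen with earlier results of these data known. Named miRNAs were the miR-181 strands, of each list the most abundant member and the 2 with the smallest p, and the 5 nearest patterns; other list members that changed were named after their values were seen. No batch is labelled. Wilson intervals cover counting error only. Intervals of fold changes come from the edgeR fit, which takes in the spread between libraries.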

Additional observations from a re-analysis of the deposited data

How the results depend on the processing

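Over 14 alternatives, 0 of the 4 guides and 0 of the tested 3p strands passed in any, and miR-181b-5p stayed above 0, at 0.02 to 0.31 on the log2 scale. Upper-quartile factors moved the median of all miRNAs to -0.17 and gave miR-181a-5p -0.14, miR-181c-5p -0.085, miR-181d-5p -0.13 and miR-181c-3p -0.059; relative to that median the 3 guides were at 0.03, 0.09 and 0.04. Library size alone moved the median to 0.12. Leaving out single libraries gave -0.10 to 0.14 for miR-181a-5p, -0.077 to 0.24 for miR-181c-5p, -0.049 to 0.13 for miR-181d-5p, -0.13 to 0.077 for the Mir181c arm ratio and 0.42 to 0.58 for the miR-181a hairpin ratio, and 0 to 1 miR-181 arm ratios passed. A minimum of 10 CPM left 27 changed miRNAs of 273 tested, against 107 of 644 (fewer miRNAs tested). The split of changed miRNAs was 83 higher and 32 lower with upper-quartile factors. With a replicate block 110 miRNAs changed and 0 guides; same-numbered libraries correlated at -0.13 in their deviations, and a crossed block, added later, gave 115 and 0. The labels give numbers only, so the block is not a pairing of animals. Depth limits the 3p strands of Mir181b-1, Mir181b-2 and Mir181d, with 3 to 28 counts.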
